A study of Rattus norvegicus with 24 samples.

Results

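miR-132 and miR-212 are a pair of small regulatory RNAs whose 4 mature strands (rno-miR-132-3p, rno-miR-132-5p, rno-miR-212-3p and rno-miR-212-5p) were taken by their names from a table of 1098 rat miRNAs, of which 703 are known and 395 are predicted. They were followed through 24 small RNA libraries from the paraventricular nucleus of the hypothalamus (PVN), which drives the hormonal stress axis, and the central amygdala (CEA), a stress-related nucleus that can act on the PVN. Each nucleus has 3 libraries from each of 4 groups of male Sprague-Dawley rats, taken on the day after the last stimulation. The groups are unoperated normal controls (NC), rats with partial hepatectomy under isoflurane (HT), hepatectomised rats with electroacupuncture at ST 36 and SP 6 before and right after surgery (HT+EA), and hepatectomised rats with the needles placed but no current (HT+SEA). All 4 groups were restrained for the same time, so the controls were not free of handling. The study's methods name as many rats as a nucleus has libraries, describe them as a single batch sampled at one time, and state that different animals stand behind the brain samples. Which rats gave which library and whether a library pooled several are not given in the sources used here, and the labels say only that the tissue is brain, with the nucleus in the title. With no animals named, the p-values below measure the spread between these libraries only, and those between the nuclei treat all 24 as separate.

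Both miRNAs are cut from a single transcribed locus that is a known target of the transcription factor CREB, and their precursors rise when neurons are active. miR-132 is best known for promoting the growth of dendrites and spines. miR-212 shares its seed, the stretch of bases that pairs with target mRNAs, and has been studied in the striatal response to cocaine. The 3p strands are the arms usually called guides, and the 5p strands come from the other side of the same hairpins. In bulk tissue, fewer cells that hold a miRNA and less of it in each cell cannot be told apart.

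The mature sequences are shown because the kinship of the 4 strands determines which of them can be read as separate measurements. They come from RefSeq for build GRCr8, which matched all 4 names, and capitals mark the seed, bases 2 to 8 from the 5′ end.
rno-miR-132-3p: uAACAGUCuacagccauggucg
rno-miR-212-3p: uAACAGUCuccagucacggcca
rno-miR-132-5p: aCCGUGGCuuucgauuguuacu
rno-miR-212-5p: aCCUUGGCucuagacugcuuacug
The 3p strands have the same seed, which no further mature miRNA in the RefSeq table carries, and match at 17 of 22 positions counted from the 5′ end, the first 9 included. The 5p strands differ within the seed and match at 14 of 22 positions. No other miRNA in the table had counts identical to those of any of the 4 in all libraries.

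All 4 lie on the plus strand of chromosome 10 in GRCr8. miR-212-5p spans chr10:60521771-60521794 and miR-212-3p chr10:60521811-60521832, followed after 222 bases by miR-132-5p at chr10:60522055-60522076 and miR-132-3p at chr10:60522091-60522112. RefSeq places the start of a long non-coding RNA, LOC120095261, just past the miR-132 hairpin, and the 300 bases around that start (chr10:60521892-60522191, plus strand) hold both miR-132 strands. The window is printed because CREB acts through a short palindrome, the cyclic AMP response element TGACGTCA, that stands in it. Capitals mark, in order, that element, miR-132-5p and miR-132-3p.
LOC120095261 window: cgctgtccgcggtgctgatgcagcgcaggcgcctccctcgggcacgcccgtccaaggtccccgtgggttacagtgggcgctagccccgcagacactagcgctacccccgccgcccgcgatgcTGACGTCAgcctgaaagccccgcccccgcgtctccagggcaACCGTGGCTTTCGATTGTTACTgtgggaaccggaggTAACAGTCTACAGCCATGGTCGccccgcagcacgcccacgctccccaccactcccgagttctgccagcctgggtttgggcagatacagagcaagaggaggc
The element occurs 1 time in the window, reads the same on both strands, and lies 181 bases past the end of miR-212-3p and 11 bases before the miR-132 hairpin. Of 33469 RefSeq promoter windows of the same length, 612 (1.83%) hold these letters. The match is a description of the sequence, and no library here measured CREB or its binding.

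Library totals ran from 6584345 to 14828269 counts in the PVN, where NC and HT were shallower than the other two groups, and from 9463321 to 14913564 in the CEA. Levels are given as CPM, the count scaled by the library total. The smallest count of any of the 4 strands was 1048, which carries a counting error of 3.09%, well under the spread between libraries. The labelled tissues were checked against marker miRNAs. The summed level of miR-7a-5p and miR-7b, abundant in the neuroendocrine hypothalamus, was 134819 to 170491 CPM in the PVN and 24805 to 54279 CPM in the CEA. All 4 neuronal markers (miR-9a-5p, miR-124-3p, miR-128-3p and miR-138-5p) were present in every library. Across miRNAs with a mean of at least 100 counts, each library correlated with the others of its group at a mean r of 0.986 to 0.998 on the log2 scale.

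All 4 strands were abundant in both nuclei, and the 5p strands were on average counted more often than the 3p strands. By mean CPM among the 703 known miRNAs, miR-132-5p ranked 66th in the PVN and 45th in the CEA, miR-132-3p 89th and 66th, miR-212-5p 193rd and 151st, and miR-212-3p 207th and 177th. Ligation and PCR efficiencies differ between small RNAs, so the order between strands is that of the counts. Together the 4 strands made up 0.247% to 0.344% of the counts in PVN libraries and 0.306% to 0.856% in CEA libraries.

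The level of miR-132-3p in the PVN was 951, 816 and 1114 CPM in the 3 NC libraries, 824, 789 and 1157 CPM in HT, 813, 839 and 822 CPM in HT+EA, and 912, 784 and 818 CPM in HT+SEA. In the CEA it was 1778, 1722 and 1693 CPM in NC, 2678, 1677 and 1964 CPM in HT, 1852, 2173 and 1407 CPM in HT+EA, and 1724, 1931 and 1015 CPM in HT+SEA. Every CEA group lay above the PVN group of the same treatment without overlap, and the single CEA library that reached into the PVN range was HT+SEA replicate 3.

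For miR-132-5p, the PVN libraries gave 1753, 1613 and 1713 CPM in NC, 1766, 1926 and 1929 CPM in HT, 1620, 1595 and 1695 CPM in HT+EA, and 1943, 1826 and 1390 CPM in HT+SEA. The CEA libraries gave 3172, 3589 and 3309 CPM in NC, 5054, 3407 and 3412 CPM in HT, 3223, 3619 and 2509 CPM in HT+EA, and 3410, 3625 and 1771 CPM in HT+SEA. HT replicate 1 stood highest and HT+SEA replicate 3 lowest in the CEA, as for the 3p strand of the same hairpin.

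miR-212-3p, which shares the seed of miR-132-3p, stood in the PVN at 159, 115 and 145 CPM in NC, 122, 119 and 182 CPM in HT, 118, 136 and 113 CPM in HT+EA, and 131, 133 and 127 CPM in HT+SEA. In the CEA it stood at 262, 204 and 203 CPM in NC, 331, 217 and 256 CPM in HT, 237, 302 and 149 CPM in HT+EA, and 207, 255 and 121 CPM in HT+SEA. Its nuclei overlapped through 2 CEA libraries, replicate 3 of HT+EA and replicate 3 of HT+SEA.

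For miR-212-5p the PVN values were 188, 134 and 228 CPM in NC, 201, 205 and 167 CPM in HT, 187, 157 and 169 CPM in HT+EA, and 176, 146 and 133 CPM in HT+SEA. The CEA values were 365, 357 and 259 CPM in NC, 499, 411 and 259 CPM in HT, 328, 381 and 260 CPM in HT+EA, and 326, 301 and 153 CPM in HT+SEA. Without HT+SEA replicate 3, no CEA library fell into the PVN range of this strand.

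**Figure D1:**
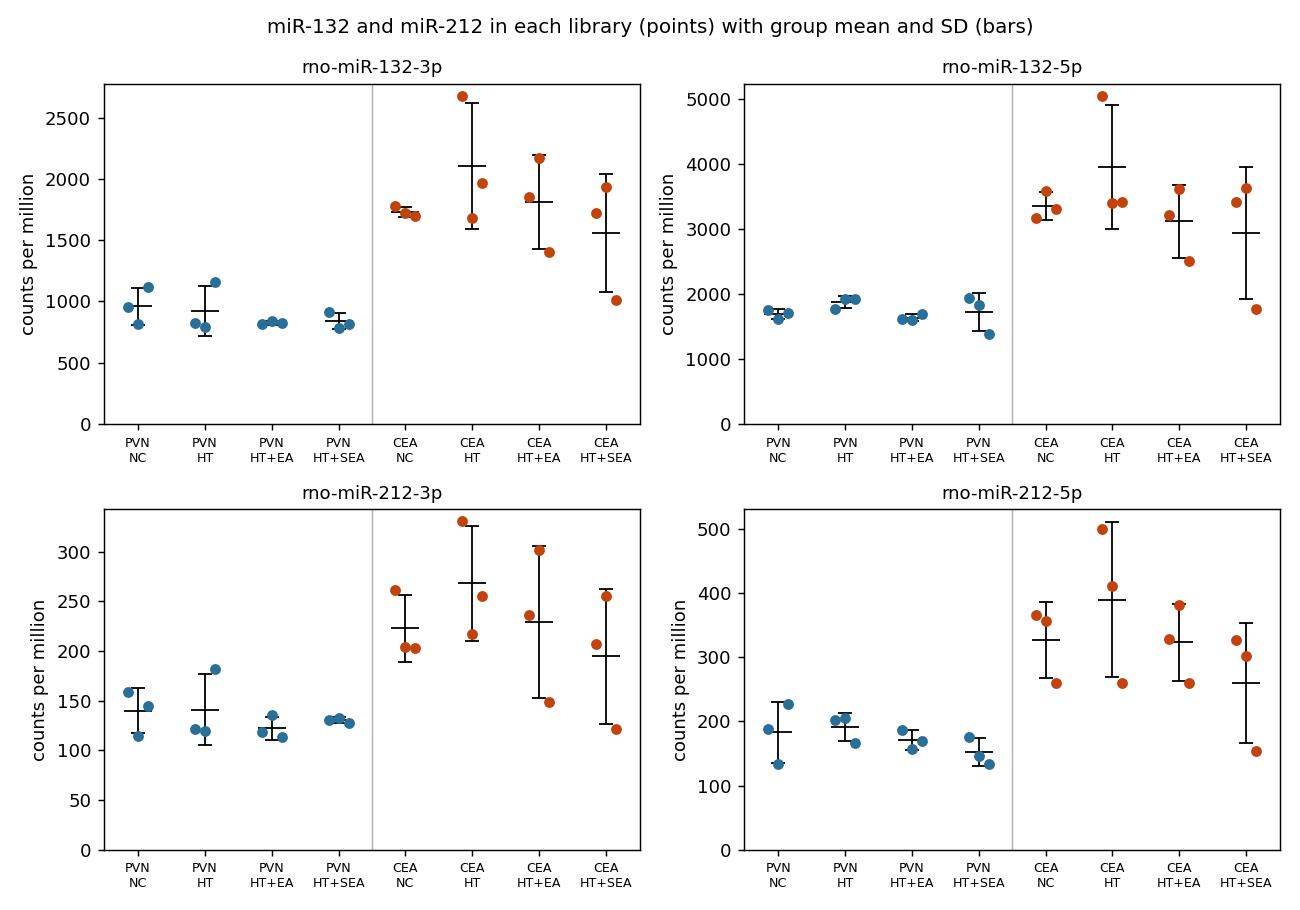
CPM of the 4 strands (vertical axes, from 0) in each of the 24 libraries (points, in the order of the replicate numbers) for the 8 combinations of nucleus and treatment, with the group mean (wide bar) and SD (whiskers, n = 3). PVN libraries (blue) sit below CEA libraries (orange) for every strand, apart from CEA HT+SEA replicate 3 and, for miR-212-3p, CEA HT+EA replicate 3, and HT replicate 1 is the highest CEA library in all 4 panels.

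The 2 nuclei were compared to see where these miRNAs are more abundant. All 4 strands were lower in the PVN than in the CEA. Mean levels were 887 ± 126 CPM in the PVN and 1801 ± 401 CPM in the CEA for miR-132-3p (SD, n = 12 each), 1731 ± 164 and 3342 ± 761 CPM for miR-132-5p, 133 ± 20.3 and 229 ± 58.9 CPM for miR-212-3p, and 174 ± 29.3 and 325 ± 88.5 CPM for miR-212-5p. With treatment as a covariate, edgeR's quasi-likelihood test gave a log2 fold change of PVN over CEA of -1.07 (SE 0.101, adjusted p = 4.75e-11) for miR-132-3p and -0.99 (SE 0.098, adjusted p = 1.34e-10) for miR-132-5p. For miR-212-3p it gave -0.82 (SE 0.115, adjusted p = 2.18e-07) and for miR-212-5p -0.94 (SE 0.118, adjusted p = 2.43e-08).

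A difference between the nuclei was common: 438 of the 1098 miRNAs (39.9%) were called at an adjusted p under 0.05, 217 of them (19.8%) lower in the PVN. Ordered from the lowest log2 fold change among the 703 known miRNAs, miR-132-3p came 49th, miR-132-5p 62nd, miR-212-5p 69th and miR-212-3p 92nd. The difference was present within each treatment: for miR-132-3p the CEA mean was 1.80 times the PVN mean in NC, 2.28 times in HT, 2.20 times in HT+EA and 1.86 times in HT+SEA. All 4 strands separated the nuclei without overlap in NC, HT and HT+EA, where 34.6%, 31.1% and 35.8% of the miRNAs did so, but in HT+SEA only miR-132-3p did, against 34.3%.

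**Figure D2:**
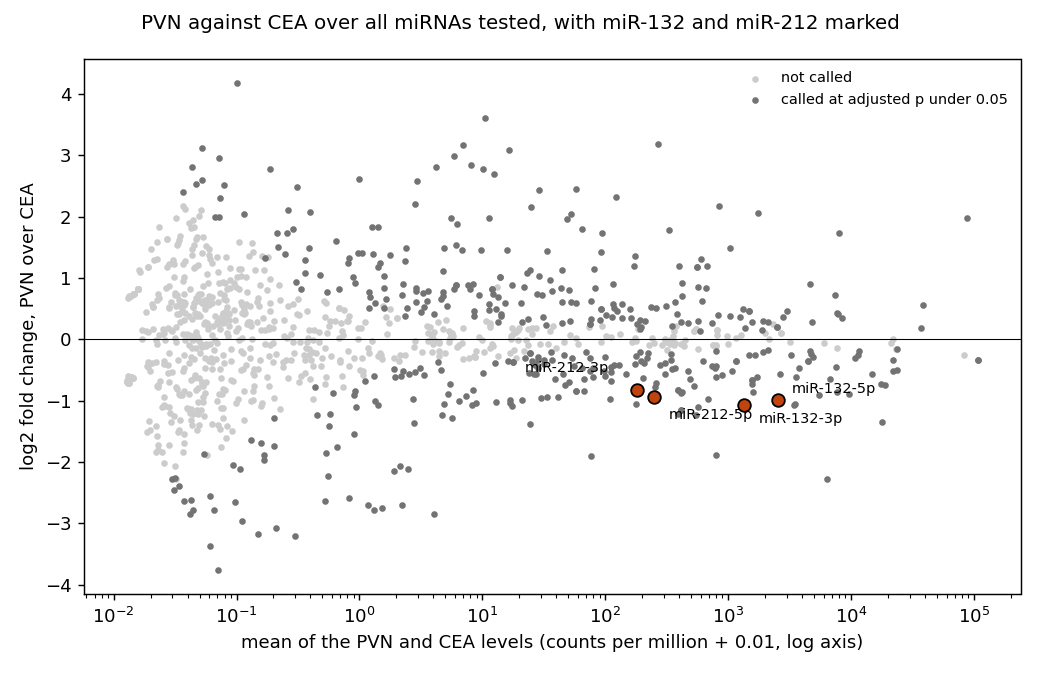
Log2 fold change of PVN over CEA (vertical axis) against the mean of the PVN and CEA levels (horizontal log axis, CPM plus 0.01) for each of the 1098 miRNAs, with those called at an adjusted p under 0.05 in dark grey. The 4 strands (orange) lie between -0.82 and -1.07, within the cloud of called miRNAs of similar abundance with others farther from 0.

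Markers of several cell types also differed between the nuclei. All 4 neuronal markers were called lower in the PVN, and their summed level was 102997 to 116875 CPM there and 137892 to 162609 CPM in the CEA. The 3 oligodendrocyte markers (miR-219a-5p, miR-219a-2-3p and miR-338-3p) summed to 1795 to 3236 CPM in the PVN and 3904 to 7916 CPM in the CEA. Of 4 markers of ciliated and choroid plexus cells, 3 were called higher in the PVN, and miR-449a-5p was not called (log2 fold change -0.30). Their summed level, nearly all of it miR-34c-5p, was 2260 to 3912 CPM in the PVN and 191 to 1124 CPM in the CEA. The endothelial marker (log2 fold change -0.34) and 1 of 3 myeloid markers were also called lower in the PVN, and 1 of 2 red cell markers higher. The liver marker was called higher (1.03), at 0.74 to 12.4 CPM in the PVN and 0.47 to 1.68 CPM in the CEA. None of 3 striated muscle markers was called. No marker in these lists was at 0, and the part of cell makeup in the difference of the 4 strands was not tested.

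A list of 20 other miRNAs known to respond to neuronal activity or to act at synapses gave no common direction. Of these, 18 were called, 11 lower and 7 higher in the PVN, with a median log2 fold change of -0.24, where 39.9% of all miRNAs were called and 19.8% were called lower. miR-128-3p, a neuronal miRNA, had -1.35, miR-138-5p, which limits dendritic spine size, -1.10, miR-219a-5p -0.98 and miR-181a-5p -0.91. miR-134-5p, which restrains spine growth through Limk1, was higher in the PVN by a log2 fold change of 1.48, and miR-188-5p by 1.497. The list overlaps the neuronal markers in 4 miRNAs and the oligodendrocyte markers in miR-219a-5p.

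The miRNAs whose levels ran most like those of the 4 strands were sought among 378 known miRNAs with a mean of at least 100 counts. Over the 24 libraries, miR-139-5p came first for every strand, with Pearson's r of 0.95 for both miR-132 strands, 0.87 for miR-212-3p and 0.85 for miR-212-5p. It differed more between the nuclei than the 4 strands did, at 2252 CPM in the PVN and 10568 CPM in the CEA (log2 fold change -2.28). The next were miR-138-1-3p and miR-383-5p for miR-132-3p (0.92 each), miR-218a-5p and miR-218b for miR-132-5p (0.93 and 0.92), miR-138-1-3p and miR-218a-5p for miR-212-3p (0.86 each), and miR-383-5p and miR-139-3p for miR-212-5p (0.83 and 0.82). miR-218a-5p and miR-218b are near copies whose reads cannot be told apart with certainty. The libraries of the 2 nuclei form separate clusters, which enter all these r values.

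After the mean of each nucleus was subtracted, miR-431, an imprinted-locus miRNA, entered the first 3 for every strand, with r of 0.80 for miR-132-3p, 0.82 for miR-132-5p, 0.84 for miR-212-3p and 0.57 for miR-212-5p. miR-431 did not separate the nuclei by the test (137 CPM in the PVN and 125 CPM in the CEA, adjusted p = 0.508 by edgeR). miR-139-5p stayed among the first 3 for all but miR-212-5p, at 0.74 for miR-132-3p, 0.82 for miR-132-5p and 0.76 for miR-212-3p. The others were miR-193b-3p for miR-132-3p (0.72), miR-148a-3p for miR-132-5p (0.70) and miR-212-5p (0.60), miR-101b-3p for miR-212-3p (0.72) and miR-541-5p for miR-212-5p (0.60). Among themselves the 4 strands had r of 0.65 to 0.93 on this scale, highest between the 3p strands. These are descriptions over 24 libraries that share depth and composition, with no test.

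**Figure D3:**
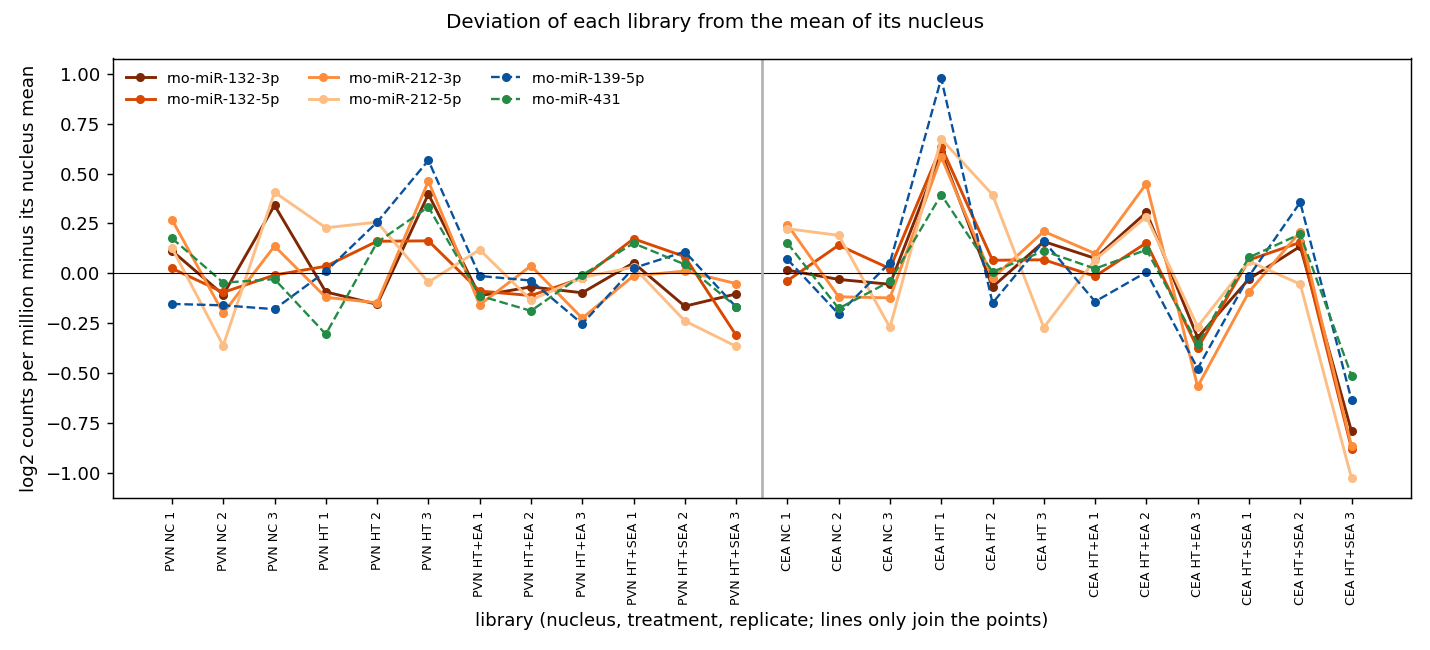
Deviation of each library's log2 CPM from the mean of its nucleus (vertical axis) for the 4 strands (solid lines) and for miR-139-5p and miR-431 (dashed lines), with the 24 libraries along the horizontal axis. CEA HT replicate 1 is high and CEA HT+SEA replicate 3 low in all 6 lines, and PVN HT replicate 3 is high in 5 of them, miR-212-5p being the exception.

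By group means, CEA HT was highest and CEA HT+SEA the lowest CEA group for all 4 strands, and all 4 CEA groups stood above all 4 PVN groups. By medians CEA HT was again highest, but CEA HT+SEA was lowest only for miR-212-5p. Its medians were 1724 CPM for miR-132-3p (NC 1722), 3410 CPM for miR-132-5p (HT+EA 3223) and 207 CPM for miR-212-3p (NC 204). Within a nucleus the neighbours in the order of means did not differ beyond their spread. In the CEA, miR-132-3p had means of 2106 ± 516 CPM in HT, 1811 ± 385 in HT+EA, 1731 ± 43.3 in NC and 1557 ± 480 in HT+SEA (SD, n = 3). In the PVN it had 960 ± 149 CPM in NC, 924 ± 203 in HT, 838 ± 66.0 in HT+SEA and 825 ± 12.9 in HT+EA.

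Whether treatment changed the 4 strands was asked first over all 4 groups of a nucleus. No strand was called in either nucleus by the test without a replicate block. In the PVN the adjusted p was 0.700 to 0.888 by edgeR, where 44 of 1053 miRNAs (4.18%) were called and 134 (12.7%) had an unadjusted p under 0.05, and no strand was among the latter. In the CEA the adjusted p was 0.992 for all 4, with unadjusted p of 0.052 for miR-132-3p, 0.0386 for miR-132-5p, 0.095 for miR-212-3p and 0.0342 for miR-212-5p. There 0 of 1064 miRNAs (0%) were called and 39 (3.67%) had an unadjusted p under 0.05. The joint interaction of nucleus and treatment had adjusted p = 1 for each strand, with 0 of 1098 miRNAs called (0%) and 25 (2.28%) at an unadjusted p under 0.05, none of them a strand of this locus.

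The comparison of HT with NC asks about the operation. In the CEA the log2 fold change of HT over NC was 0.39 (SE 0.176) for miR-132-3p, 0.35 (SE 0.174) for miR-132-5p, 0.37 (SE 0.190) for miR-212-3p and 0.36 (SE 0.186) for miR-212-5p. None passed the adjusted threshold (adjusted p = 0.988 for each by edgeR), where 2 of 996 miRNAs (0.201%) did, or 6 with the replicate number as a block, none of them a strand of this locus. At an unadjusted p under 0.05, 2 strands passed, miR-132-3p (unadjusted p = 0.0263 by edgeR's fit across all miRNAs) and miR-132-5p (unadjusted p = 0.0462), beside 38 miRNAs in all (3.82%), 18 of them higher in HT (1.81%). Over 7 alternative fits that kept every library, the estimates shrank to as little as 0.28, 0.24, 0.27 and 0.25 in the same order. Their unadjusted p was under 0.05 in 3, 2, 2 and 1 of the 7. The HT and NC libraries overlapped for every strand (5.62% of the miRNAs did not overlap), and the fit drew the spread of every miRNA wholly from the trend over all of them. Over fits that left out 1 library each, the log2 fold changes reached from 0.05, -0.00, 0.06 and 0.01 in the same order, each without HT replicate 1, the highest CEA library, up to 0.63, 0.55, 0.59 and 0.67, without HT replicate 2 or, for miR-212-5p, replicate 3. Cell markers differed in the same comparison. The myeloid miR-223-3p was called lower in HT (log2 fold change -2.98), at low levels of 0.89 to 0.91 CPM against 1.27 to 10.8 CPM in NC. All 4 ciliated and choroid plexus markers (median -1.16) and both red cell markers (median -0.61) were lower at an unadjusted p under 0.05. So were 1 of 3 oligodendrocyte and 1 of 3 striated muscle markers, and none of these but miR-223-3p was called. The part of all these markers in the result was not tested.

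The needle groups were compared with HT to ask what electroacupuncture or needles alone changed after surgery. In the CEA all 8 estimates were below 0 and none passed the adjusted threshold. HT+EA had log2 fold changes of -0.39 (SE 0.191) for miR-132-3p, -0.52 (SE 0.187) for miR-132-5p, -0.40 (SE 0.212) for miR-212-3p and -0.45 (SE 0.206) for miR-212-5p, with adjusted p of 0.454 to 0.897 by edgeR and 1 of 1004 miRNAs called (0.0996%). Unadjusted, 3 strands passed 0.05, all but miR-212-3p, beside 53 miRNAs (5.28%), 35 of them lower than HT (3.49%). Over 7 alternative fits that kept every library, these estimates shrank to as little as -0.22, -0.34, -0.23 and -0.27 in the same order. Their unadjusted p was under 0.05 in 1, 5, 1 and 1 of the 7. HT+SEA had -0.57 (SE 0.208), -0.56 (SE 0.210), -0.59 (SE 0.221) and -0.71 (SE 0.227) in the same order, with adjusted p of 0.291 to 0.529 by edgeR and 4 of 999 miRNAs called (0.4%). All 4 strands had an unadjusted p between 0.00262 and 0.00991 by edgeR there, beside 47 miRNAs (4.7%), 27 of them lower than HT (2.7%). Of the 4 calls, 3 were cell markers higher in HT+SEA, miR-223-3p (2.92) and the ciliated and choroid plexus markers miR-200a-3p (1.62) and miR-200b-3p (1.96). Their levels in HT were low, at 0.89 to 0.91, 0.52 to 3.34 and 0.74 to 1.22 CPM in this order. In HT+SEA they ranged from 1.38 to 19.0, 5.05 to 9.48 and 2.92 to 5.43 CPM. DESeq2 and a stricter filter of low counts each called 0 miRNAs in this comparison. At the unadjusted threshold 1 of 2 red cell and 1 of 3 striated muscle markers were also higher there. In HT+EA against HT, 1 of 3 myeloid markers was called higher, and at the unadjusted threshold 2 of 4 ciliated and choroid plexus markers were higher, while 1 of 4 neuronal, 1 of 3 oligodendrocyte and 1 of 2 red cell markers were lower. The HT libraries are common to these comparisons and to HT against NC, and their high replicate 1 enters all of them.

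HT replicate 1 and HT+SEA replicate 3 stood apart from the other CEA libraries. The first held 0.856% of its counts in the 4 strands and the second 0.306%, while the other CEA libraries held 0.432% to 0.647%. Without HT replicate 1 the log2 fold changes of HT+EA against HT were -0.06 for miR-132-3p, -0.18 for miR-132-5p and -0.10 for both miR-212 strands, and those of HT+SEA against HT were -0.23, -0.22, -0.29 and -0.37 in the order used above. Without HT+SEA replicate 3 the latter were -0.35, -0.32, -0.36 and -0.46. Leaving out HT replicate 2 or 3 instead brought calls: miR-132-5p (-0.70 or -0.68) and, without replicate 3, miR-212-5p (-0.72) in HT+EA against HT, and in HT+SEA against HT miR-132-3p (-0.78) and miR-132-5p (-0.74) without replicate 2 and miR-212-5p (-0.99) without replicate 3. With both HT replicate 1 and HT+SEA replicate 3 left out, the log2 fold changes of HT+SEA against HT were 0.01 for miR-132-3p, 0.05 for miR-132-5p, -0.03 for miR-212-3p and -0.09 for miR-212-5p. This fit was chosen after seeing the data, and since it removes the highest library of one group and the lowest of the other, it had to bring the groups closer. HT+SEA replicate 3 also had the highest oligodendrocyte marker sum of the CEA, 7916 CPM against 3904 to 6957 CPM, and the highest red cell marker sum there, 221 CPM. Its sums of striated muscle markers (51.4 CPM) and of ciliated and choroid plexus markers (1124 CPM, beside 1123 CPM in NC replicate 2) were the highest there too. HT+EA replicate 3, the second lowest for miR-132-3p, miR-132-5p and miR-212-3p, had 6922 CPM of oligodendrocyte markers and 0.432% of its counts in the 4 strands. NC replicate 2 had 6957 CPM of these markers and 0.587% of its counts in the 4 strands. HT replicate 1 had 4252 CPM of oligodendrocyte markers and miR-139-5p at 19983 CPM. Its sums of ciliated and choroid plexus (191 CPM), red cell (52.2 CPM), myeloid (53.8 CPM) and striated muscle markers (21.3 CPM) were the lowest of the CEA. The part of these differences in makeup was not tested.

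HT+EA and HT+SEA did not differ detectably in the CEA, with log2 fold changes of 0.18 for miR-132-3p, 0.05 for miR-132-5p, 0.20 for miR-212-3p and 0.27 for miR-212-5p. The adjusted p was 0.997 for each by edgeR, with 0 of 1026 miRNAs called (0%) and 23 (2.24%) at an unadjusted p under 0.05, no strand of this locus among them. The 95% intervals ran from -0.29 to 0.64 over the 4 strands, so that a difference of either sign remained possible within them.

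In the PVN the differences were small apart from that of miR-212-5p in HT+SEA against HT, given below. HT against NC gave log2 fold changes between -0.10 (miR-132-3p) and 0.11 (miR-132-5p), with no strand called at either threshold. There 32 of 986 miRNAs (3.25%) passed the adjusted and 107 (10.9%) the unadjusted threshold. HT+EA against HT gave -0.12 to -0.16, again with no strand called, beside 10 of 985 miRNAs (1.02%) adjusted and 112 (11.4%) unadjusted. HT+EA against HT+SEA gave -0.10 (miR-212-3p) to 0.16 (miR-212-5p), with no strand called beside 27 of 994 (2.72%) adjusted and 71 (7.14%) unadjusted. The fit of this last comparison drew the spread of every miRNA wholly from the trend over all of them. Over all 4 comparisons in the PVN the 95% intervals stayed between -0.62 and 0.38.

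HT+SEA against HT gave -0.12 for miR-132-3p, -0.11 for miR-132-5p and -0.09 for miR-212-3p in the PVN. miR-212-5p was the exception, at -0.33 (SE 0.142, unadjusted p = 0.0287, adjusted p = 0.521 by edgeR), beside 83 of 1000 miRNAs (8.3%) at the unadjusted and 2 (0.2%) at the adjusted threshold. The HT and HT+SEA ranges of this strand overlapped, at 167 to 205 and 133 to 176 CPM. Without PVN HT replicate 3 it was called, at -0.46 (adjusted p = 0.00363, edgeR). The 2 miRNAs called in this comparison were the ciliated and choroid plexus markers miR-200a-3p (1.34) and miR-200b-3p (1.32). At the unadjusted threshold 2 of 4 neuronal, 1 of 3 oligodendrocyte, 1 of 3 striated muscle markers and the liver marker were lower, and 1 of 3 myeloid markers was higher. The liver marker was at 12.4 CPM in HT replicate 1 only, with 1.08 and 1.18 CPM in replicates 2 and 3 and 0.74 to 1.23 CPM in HT+SEA. The part of all these markers in the result was not tested.

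miR-132-5p was the 1 strand whose PVN groups did not overlap in a comparison. Its HT libraries, at 1766 to 1929 CPM, lay above the NC libraries, at 1613 to 1753 CPM, and above the HT+EA libraries, at 1595 to 1695 CPM. Of all miRNAs tested, 12.8% did not overlap between HT and NC and 15.7% between HT+EA and HT, so that 1 strand of 4 is near the background. The fitted changes were 0.11 (SE 0.136) and -0.16 (SE 0.105), and neither was called.

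**Figure D4:**
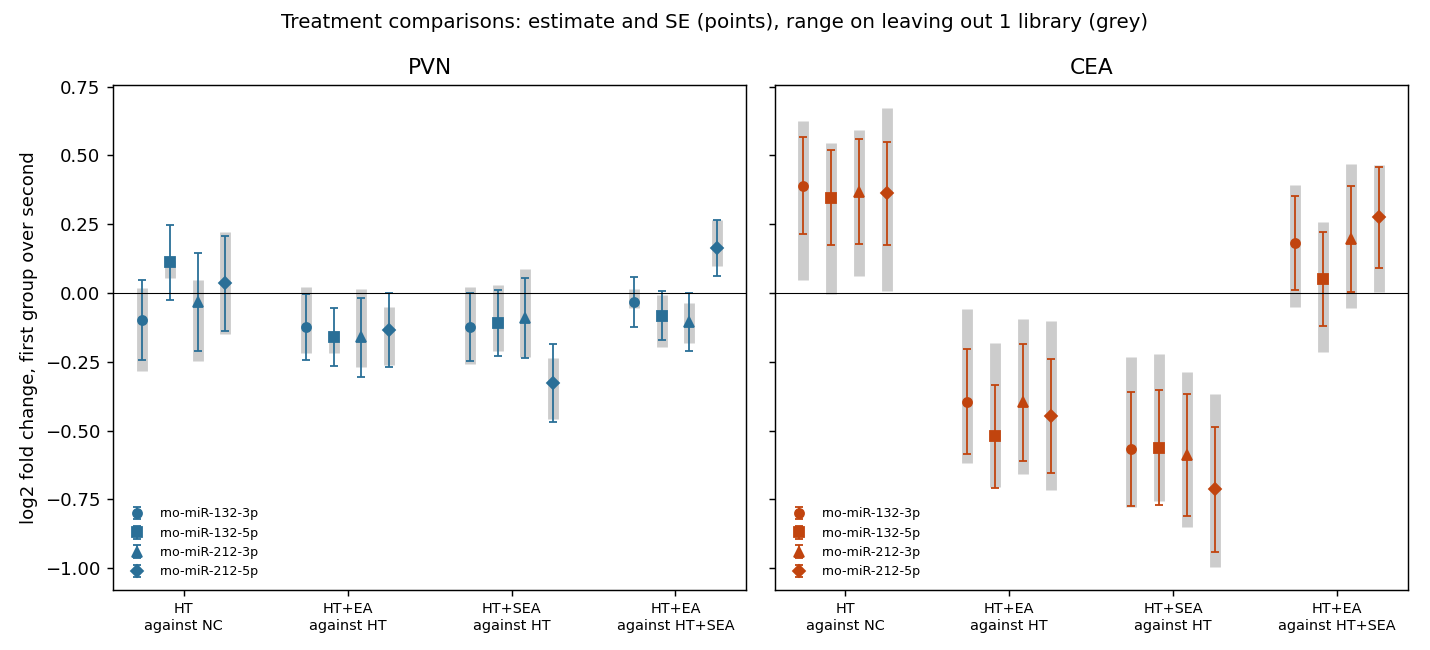
Log2 fold changes of the first group over the second (vertical axis) for the 4 strands (marker shapes) in 4 comparisons, with the PVN on the left and the CEA on the right. Whiskers are the SE of the edgeR fit and grey bars the range over fits that leave out 1 of the 6 libraries. The PVN estimates lie between -0.33 and 0.16, and the CEA estimates between -0.71 and 0.39, with grey bars that reach to or near 0 in HT against NC and cross 0 for 3 strands in HT+EA against HT+SEA.

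The effect of each treatment was also compared between the nuclei. Of the 16 differences in effect (4 strands in 4 comparisons), none was called, with adjusted p of 0.852 or more and unadjusted p of 0.0700 or more by edgeR. The nearest was miR-132-3p in HT against NC, at -0.10 in the PVN and 0.39 in the CEA in the separate fits, a difference of -0.50 (SE 0.270) in the joint fit.

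The 20 activity miRNAs were read in the same comparisons. In the CEA none was called in any comparison. At an unadjusted p under 0.05, 1 of the 20 was lower in HT than in NC (miR-219a-5p at -0.43), 3 were lower in HT+EA than in HT (miR-219a-5p at -0.71, miR-218a-5p at -0.49 and miR-128-3p at -0.40, named after their values were seen), none differed between HT+SEA and HT, and 1 was lower in HT+EA than in HT+SEA (miR-219a-5p at -0.51). In the PVN, miR-128-3p was called higher in HT than in NC (log2 fold change 0.52, adjusted p = 0.00137, edgeR). miR-219a-5p was called lower in HT+EA than in HT (-0.94, adjusted p = 0.000422, edgeR). It was also called lower in HT+EA than in HT+SEA (-0.70, adjusted p = 7.44e-07, edgeR), at 40.5 to 54.8 against 55.0 to 93.8 CPM. The fit of the needle groups drew the spread of every miRNA wholly from the trend over all of them. It called 27 miRNAs, where DESeq2 called 2. No list member was called between HT+SEA and HT in the PVN. At an unadjusted p under 0.05 the PVN had 6 of the 20 in HT against NC (5 higher), 4 in HT+EA against HT and 2 in HT+SEA against HT (all lower), and 5 between the needle groups (4 lower in HT+EA). Over all miRNAs the shares were 10.9%, 11.4%, 8.3% and 7.14% in the PVN and 3.82%, 5.28%, 4.7% and 2.24% in the CEA, so that 2 of 20 lies near the background. In HT against NC in the PVN, 3 of 4 ciliated and choroid plexus markers, 1 of 3 striated muscle markers and 1 of 3 myeloid markers (miR-223-3p, -5.62) were called lower. There 1 of 3 oligodendrocyte markers and the liver marker were called higher. The liver marker rested on 1 library, at 12.4 CPM in HT replicate 1 but 1.08 and 1.18 CPM in replicates 2 and 3, and 0.95 to 1.67 CPM in NC. In HT+EA against HT, 2 of 4 ciliated and choroid plexus markers and 1 of 3 myeloid markers were called higher and 1 of 2 red cell markers lower. There, of the oligodendrocyte markers, miR-219a-2-3p, from a hairpin of the miR-219a family, stood at 0.29 while miR-219a-5p was at -0.94 and miR-338-3p at -0.43, of which only miR-219a-5p was called. In HT+EA against HT+SEA, 1 of 3 myeloid markers was called higher and 1 of 2 red cell markers lower. The part of cell makeup in the list's counts was not tested. The medians over the list were between -0.07 and 0.07 in all 8 comparisons.

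Ratios of counts within a library do not depend on its depth or scaling, and were used to ask whether the arms and hairpins kept one proportion. Within the hairpins no difference between the nuclei was detected. The ratio of miR-132-3p to miR-132-5p had geometric means of 0.510 in the PVN and 0.540 in the CEA over 12 libraries each (exact permutation p = 0.23, two-sided, adjusted p = 0.920 over 12 tests). That of miR-212-3p to miR-212-5p had 0.769 and 0.707 (exact permutation p = 0.314, adjusted p = 0.920). For the 5p strands of the hairpins none was detected either, with miR-132-5p at geometric means of 10.0297 times miR-212-5p in the PVN and 10.4 times in the CEA (exact permutation p = 0.531, adjusted p = 0.920).

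The 3p strands with the shared seed were the exception. miR-132-3p was counted 5.97, 7.10 and 7.67 times as often as miR-212-3p in the 3 PVN NC libraries, 6.78, 6.62 and 6.36 times in HT, 6.87, 6.19 and 7.27 times in HT+EA, and 6.96, 5.89 and 6.42 times in HT+SEA. In the CEA it was 6.79, 8.45 and 8.34 times in NC, 8.08, 7.72 and 7.68 times in HT, 7.82, 7.2005 and 9.43 times in HT+EA, and 8.32, 7.56 and 8.38 times in HT+SEA. The geometric means were 6.66 times in the PVN and 7.96 times in the CEA, and the ranges overlapped. On the log2 scale the PVN was lower by 0.257 (2.73 ± 0.116 against 2.99 ± 0.123, SD, n = 12 each). An exact permutation test over the 160000 ways to exchange the nuclei within treatments gave p = 0.0001625 (two-sided), and an adjusted p of 0.00195 over the 12 ratio tests.

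Treatment moved no ratio detectably. Over the 4 groups of a nucleus, the exact permutation tests of all 4 ratios, each over 369600 assignments, gave adjusted p of 0.920 to 0.949. In the low library of the CEA, HT+SEA replicate 3, the 3p ratio was 8.38, and in the high one, HT replicate 1, it was 8.08, so both strands deviated there by a similar factor.

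**Figure D5:**
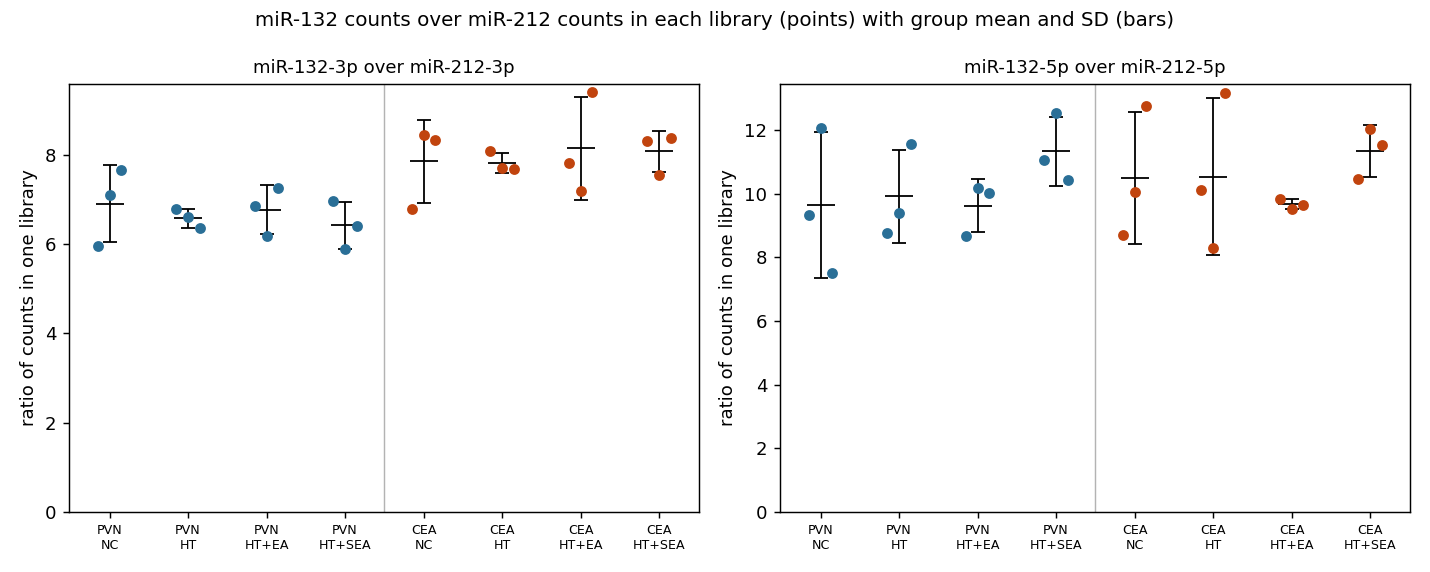
Ratio of miR-132 to miR-212 counts within each library (points) for the 3p strands (left) and the 5p strands (right), by nucleus and treatment, with the group mean (wide bar) and SD (whiskers, n = 3), both vertical axes starting at 0. On the left the PVN libraries lie at 5.89 to 7.67 and the CEA libraries at 6.79 to 9.43, and on the right the nuclei cover nearly the same range.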

How the data were processed

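Total RNA of PVN and CEA tissue was made into small RNA libraries (NEBNext). The authors deposited raw counts of reads per miRNA, not normalized. The submitters' processing notes name HISAT2, featureCounts and the human builds GRCh38 and hg38, while the study's methods name a rat genome, and the design text calls the animals mice. The miRNA names are those of rat. How reads matching several miRNAs were counted is not given in the sources used here. A further 24 columns of normalized values, whose names match no label, were not used. Sequences and positions are RefSeq's (GRCr8), and are not the build of the counts.

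Libraries were grouped by the nucleus in the title and the treatment label. Counts were fitted with edgeR 4.0.16 (limma 3.58.1, R 4.3.3): TMM normalization, miRNAs with at least 1 count, quasi-likelihood test, Benjamini-Hochberg adjustment over all miRNAs tested, calls at an adjusted p under 0.05. The study used DESeq2 with an unadjusted threshold of 0.05, which is given beside. SE is the log2 fold change over the square root of F. The scripts were tested on simulated data. Nucleus tests used 24 libraries, joint treatment tests 12 and pairs 6. Ratios were tested by exact permutation in Python 3.11.15. CPM scales each count by the library total, and the log scale of the similarity search added 0.5 to each count. Totals of 6584345 to 14913564 counts make 3 counts equal to 0.201 to 0.456 CPM. Such limits cover counting error only.

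The text names the 4 strands, the 3 most similar miRNAs of each strand on each of 2 scales, and up to 6 miRNAs of the activity list per comparison. The members and lists were chosen with earlier results of these data known. Alternatives were DESeq2 1.42.0, its size factors, library totals, filterByExpr, a robust spread, a fit on the whole nucleus, replicate blocks and leaving out each library. Groups share replicate numbers in the labels, which do not say what a number marks. Among the treatment comparisons, deviations from group means correlated at over 0.1 in every same-numbered pair only for HT and NC in the CEA (r = 0.25 to 0.44), and there the block changed no call of the 4 strands. Between PVN and CEA libraries of one number, r was 0.20 to 0.30 in NC, 0.26 to 0.38 in HT+EA and 0.21 to 0.65 in HT+SEA, but -0.08 to 0.05 in HT, and a block on the pairs changed no call of the strands between the nuclei, nor a block on the replicate number that of a ratio.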

Additional observations from a re-analysis of the deposited data

How the results depend on the processing

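The lower level of all 4 strands in the PVN kept its direction and call under every alternative, with log2 fold changes of -1.16 to -1.02 for miR-132-3p, -1.09 to -0.94 for miR-132-5p, -0.92 to -0.77 for miR-212-3p and -1.04 to -0.89 for miR-212-5p. So did the 3p ratio (differences of -0.278 to -0.235). Over 60 results and 1036 alternatives, 1005 values kept their direction and side of the threshold, 22 reversed and 9 became called.

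Estimates near 0 turned when 1 library was left out. In the PVN, over fits without 1 library each, HT against NC ranged from -0.2826 to 0.0197 for miR-132-3p, -0.246 to 0.04626 for miR-212-3p and -0.1502 to 0.2201 for miR-212-5p. HT+EA against HT ranged from -0.2181 to 0.02224 for miR-132-3p and -0.2684 to 0.01405 for miR-212-3p. HT+SEA against HT ranged from -0.2591 to 0.02127 for miR-132-3p, -0.2115 to 0.02771 for miR-132-5p, -0.2322 to 0.08585 for miR-212-3p and -0.4559 to -0.2376 for miR-212-5p, and HT+EA against HT+SEA from -0.05552 to 0.01573 for miR-132-3p. In the CEA, HT against NC ranged from -0.002142 to 0.5468 for miR-132-5p. HT+EA against HT ranged from -0.7038 to -0.1799 for miR-132-5p and -0.7163 to -0.1017 for miR-212-5p, and HT+SEA against HT from -0.7786 to -0.2316 for miR-132-3p, -0.7567 to -0.221 for miR-132-5p and -0.9948 to -0.3673 for miR-212-5p. HT+EA against HT+SEA ranged from -0.0522 to 0.3927 for miR-132-3p, -0.2124 to 0.2571 for miR-132-5p and -0.05397 to 0.4691 for miR-212-3p.

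Scaling by library totals only gave 0.01321 for miR-212-3p in HT against NC in the PVN. Without both the highest and the lowest CEA library, chosen after seeing the data, HT+SEA against HT was 0.006012 for miR-132-3p and 0.04568 for miR-132-5p. With a replicate block, the test over 4 treatments in the CEA called miR-132-5p (adjusted p = 0.03537, edgeR) and miR-212-5p (adjusted p = 0.02999, edgeR) and 25 miRNAs in all, against 0 without it, but the labels do not say what a number marks, and of the 4 CEA comparisons same-numbered libraries deviated together in every pair only in HT against NC. The block changed no other call of the 4 strands. The cause of these changes was not tested.

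Counts of called miRNAs moved by over 1.5 times in the treatment comparisons. Over 4 treatments in the PVN they ran from 6 (a stricter filter) to 88 (without NC replicate 2) around 44, and in the CEA from 0 to 25 around 0. In the PVN, HT against NC had 1 to 42 calls, HT+EA against HT 4 to 51, HT+SEA against HT 0 to 31 and the needle groups against each other 0 to 27. In the CEA the ranges in the same order were 0 to 9, 0 to 21, 0 to 17 and 0 to 5. PVN against CEA kept 403 to 439. DESeq2 called 0 miRNAs where edgeR called 0, with 16 at an unadjusted p under 0.05 for the interaction, 21 over 4 treatments in the CEA and 8 between the needle groups there. Elsewhere DESeq2 and edgeR called 421 and 438 between the nuclei and 28 and 44 over 4 treatments in the PVN. In the PVN they called 3 and 32 in HT against NC, 13 and 10 in HT+EA against HT, 2 and 2 in HT+SEA against HT and 2 and 27 between the needle groups. In the CEA it was 1 and 2 in HT against NC, 1 and 1 in HT+EA against HT, and 0 and 4 in HT+SEA against HT. Depth did not limit the 4 strands (at least 1048 counts each).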
